A study of Mus musculus with 48 samples.

Results

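The genes described here are Ppp4c, the catalytic subunit of protein phosphatase 4 (PP4), and 7 genes related to it: the PP4 regulatory subunits Ppp4r1, Ppp4r2 and Ppp4r4, the catalytic subunits Ppp2ca, Ppp2cb and Ppp6c of the sister phosphatases, and the catalytic-subunit binding protein Igbp1. They are 8 of 47069 gene rows in a table of read counts, chosen by symbol, with 1 Ensembl identifier each. Ppp4c is the member that lies in the deleted stretch of chromosome 7. Messenger RNA was sequenced from cortex, striatum and cerebellum of 8 mice labelled 16p11.2 Deletion, which carry a deletion of the matching mouse segment in band 7qF3, and of 8 wild type mice. All 16 animals had a background given as C57BL/6N and 129Sv, each genotype had 4 males and 4 females, and every animal gave 1 library per tissue, 48 in all. Where the labels should give an age they hold 1 of 2 dates, 1 for all males and the other for all females, which means that the 2 variables cannot be told apart. The labels do not give the number of copies deleted, and the age in days is not analysed here.

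Protein phosphatases of this family remove phosphate from serine and threonine. Their catalytic subunits are close relatives, and the regulatory subunit each one binds sets what it acts on and where. PP4 bound to Ppp4r2 and a Ppp4r3 subunit acts on phosphorylated histone H2AX and other proteins of DNA repair, and in the mouse cortex PP4 is needed by neural progenitors to orient their divisions. Igbp1, also called alpha4, holds free catalytic subunits of PP2A, PP4 and PP6 and keeps them from being degraded. A shift in one catalytic subunit can therefore be looked at beside its partners and its relatives, as is done below for transcripts. Protein was not measured.

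The ends of the coding regions of the 4 catalytic subunits are shown because the last codon, in capitals, which differs in its final base in Ppp6c, encodes the leucine whose methylation by Lcmt1 and demethylation by Ppme1 influence which regulatory subunits PP2A binds. The sequences are the final 60 coding bases of the principal transcripts, stop codon included, 5′ to 3′ on the coding strand, from GENCODE vM21 transcripts on GRCm38. Each lies in 1 exon, at chr7:126786162-126786221 (minus strand) for Ppp4c, chr11:52121915-52121974 (plus strand) for Ppp2ca, chr8:33619135-33619194 (plus strand) for Ppp2cb and chr2:39197341-39197400 (minus strand) for Ppp6c.
Ppp4c: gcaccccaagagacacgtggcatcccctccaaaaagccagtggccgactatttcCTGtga
Ppp2ca: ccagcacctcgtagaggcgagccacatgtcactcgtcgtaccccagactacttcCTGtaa
Ppp2cb: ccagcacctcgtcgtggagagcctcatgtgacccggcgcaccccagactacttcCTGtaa
Ppp6c: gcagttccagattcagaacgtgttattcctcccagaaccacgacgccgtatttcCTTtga
The coding regions have 307 codons in Ppp4c, 309 in Ppp2ca and in Ppp2cb, and 305 in Ppp6c. Aligned end to end, Ppp2ca and Ppp2cb had identical bases in 81.7% of columns, and Ppp4c matched Ppp2ca in 64.4%, Ppp2cb in 63.0% and Ppp6c in 62.1%. The longest run of identical bases was 25 between the PP2A pair and 14 between Ppp4c and either of them. No stretch of 50 bases in the principal transcript of any of these 4 genes occurred in that of another.

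Each library held between 29244745 and 60751792 gene counts (median 32232112), and Ppp4c had 1315 counts per library on average. The 10 cerebellar markers averaged 6.38 to 9.17 log2 CPM (TMM-scaled counts-per-million) in cerebellum and at most 2.80 elsewhere. The 8 cortical markers averaged 5.65 to 6.87 in cortex and 2.20 to 6.04 in striatum. The 10 striatal markers did not separate cortex from striatum, with medians of 6.86 in deletion and 5.90 in wild type cortices, and of 6.56 in deletion and 6.17 in wild type striata. In the striatum library of deletion female D810 the thalamic markers, at 5.89, exceeded the striatal ones, at 4.96. Thalamic markers were nearly as high in another deletion striatum, at 5.87, and in the striatum of W814, at 5.75. Striatal markers were as low as 3.91 among wild type striata. In the cerebellum library of deletion female D809 the cerebellar markers averaged 6.38, against 7.87 or more in the other 15 cerebellum libraries. Choroid plexus markers reached 5.68 in the cortex of W813, against a wild type median of 0.64, and 6.42 in the striatum of W816, against 1.53. Blood markers were highest in all 3 tissues of deletion animal D804, at 5.95 in cortex, 5.58 in striatum and 6.43 in cerebellum, against at most 3.42, 2.87 and 3.87 in wild type libraries. The part of these libraries in the results was looked at in 2 ways, both given below. These were leaving out each animal, and fits with the striatal and choroid plexus marker levels as covariates. Beyond that it was not tested. None of the marker genes was at 0 throughout any group. In bulk tissue, fewer cells of a type and less RNA per cell cannot be told apart.

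Ppp4c was lower in deletion than in wild type mice in each of the 3 tissues, to between 0.474 and 0.520 of the wild type level. In cortex it had 15.6, 23.3 and 31.9 CPM (lowest, median and highest of 8) in deletion libraries, against 34.6, 49.1 and 64.5 CPM in wild type libraries. In striatum it had 16.8, 26.2 and 31.5 CPM in deletion libraries, against 32, 43.8 and 69.0 CPM in wild type libraries. In cerebellum it had 19.6, 33.0 and 39.0 CPM in deletion libraries, against 39.8, 66.0 and 81.0 CPM in wild type libraries. The highest deletion library lay below the lowest wild type library in every tissue, by a narrow margin in striatum and in cerebellum, and no deletion library was near 0. Non-overlap of the 8 deletion and 8 wild type libraries, with the deletion libraries lower, was found for 0.107% of the genes tested in cortex, 0.105% in striatum and 0.0960% in cerebellum.

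**Figure D1:**
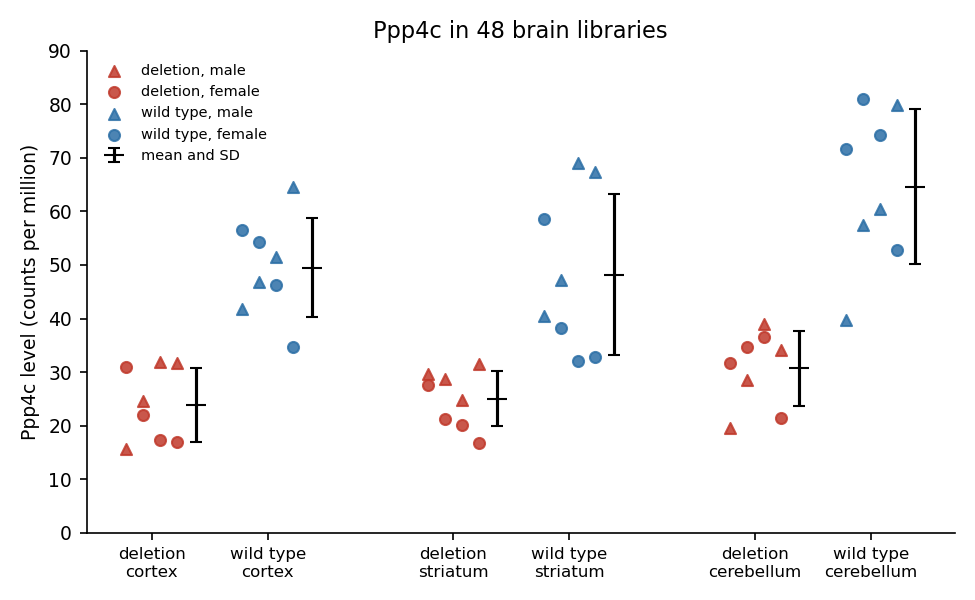
Ppp4c level in CPM (vertical axis) in each of the 48 libraries, by tissue and genotype, with triangles for males, circles for females and bars for the mean and SD of 8 libraries. In each tissue all deletion libraries sit below all wild type libraries, the closest pair being 31.5 CPM in deletion striatum and 32 CPM in wild type striatum.

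By edgeR's quasi-likelihood test with sex as a covariate, the log2 fold change of Ppp4c, deletion over wild type, was -1.05 ± 0.18 (SE) in cortex, with a 95% interval of -1.45 to -0.66 and a Benjamini-Hochberg adjusted p of 0.0286. It was -0.94 ± 0.16 in striatum (-1.28 to -0.60, adjusted p = 0.0199) and -1.08 ± 0.18 in cerebellum (-1.45 to -0.71, adjusted p = 0.0133). As ratios these are 0.482, 0.520 and 0.474 of the wild type level, and a log2 fold change of -1, the value for 1 of 2 copies, is inside each interval. Lower calls were 0.119% of all genes tested in cortex, 0.116% in striatum and 0.126% in cerebellum, and Ppp4c was the single member among them in each tissue. The size was stable but the call across all genes was not: leaving out 1 animal at a time kept the log2 fold change between -1.16 and -0.97 in cortex, -1.02 and -0.83 in striatum and -1.16 and -0.998 in cerebellum by edgeR. The adjusted p was above 0.05, reaching at most 0.0914, without any 1 of 10 animals in cortex (D802, D810, D811, D812, W806, W807, W808, W813, W814 and W815), with values of -1.08 to -0.9964. It reached at most 0.0944 without any 1 of 8 in striatum (D801, D802, D803, D810, D811, D812, W807 and W808), with values of -0.95 to -0.88. Males alone gave -0.96, -0.97 and -0.98 and females alone -1.14, -0.92 and -1.17 in cortex, striatum and cerebellum, none past the threshold. The call was also lost with the striatal and choroid plexus marker levels as covariates (-0.98, -0.85 and -1.02) and, in striatum, with no sex covariate (-0.95).

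The other genes of the deleted stretch give the scale for this fall. The interval was taken as chr7:126689468-127214298 (GRCm38), from the start of Slx1b to the end of Mylpf, where 54 genes of the table are annotated, and Ppp4c lies inside it at 126785866 to 126792496 on the minus strand, overlapping no other gene. Every tested interval gene had a log2 fold change below 0 in each tissue, 30 in cortex, 33 in striatum and 32 in cerebellum. Their medians were -1.08, -1.05 and -1.04, and their ranges -1.86 to -0.76 in cortex, -1.59 to -0.85 in striatum and -1.38 to -0.34 in cerebellum. Counted from the largest fall, Ppp4c ranked 17 of 30, 27 of 33 and 13 of 32, so it stood in the middle of the interval genes in cortex and cerebellum and among the smaller falls in striatum. Its neighbours are Tbx6, a mesoderm transcription factor whose gene ends 305 bases away, and Aldoa, the glycolytic enzyme aldolase A, 2737 bases away. Aldoa gave -1.05 ± 0.15, -0.96 ± 0.16 and -0.93 ± 0.16 in cortex, striatum and cerebellum, with adjusted p of 0.00458, 0.0131 and 0.0181 in the same edgeR fits. Tbx6 was at a low level, with a mean of 0.15, 0.14 and 1.43 log2 CPM. It gave -0.90 ± 0.20, -0.98 ± 0.16 and -0.75 ± 0.25. In edgeR it passed the threshold in striatum alone (adjusted p = 0.0167, against 0.231 in cortex and 0.9997 in cerebellum).

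**Figure D2:**
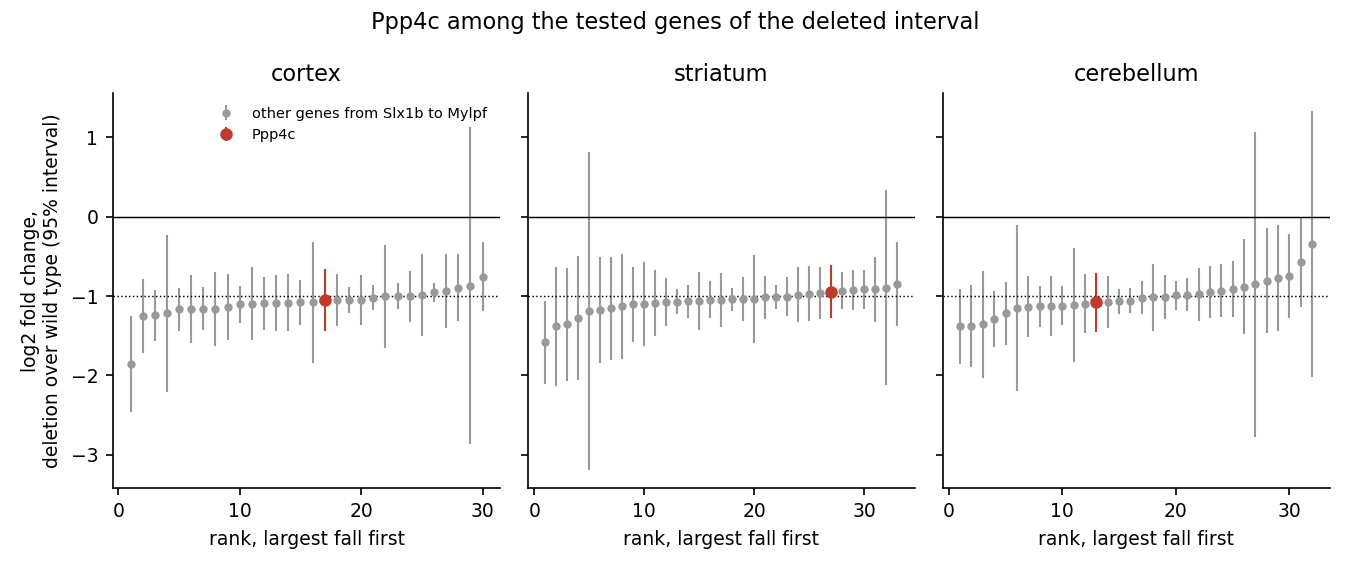
Log2 fold change, deletion over wild type, with 95% interval (vertical axis) of the tested genes from Slx1b to Mylpf in each tissue, ordered by rank from the largest fall (horizontal axis), with Ppp4c in red and a dotted line at -1. Ppp4c ranks 17 of 30 in cortex, 27 of 33 in striatum and 13 of 32 in cerebellum, and its interval covers the dotted line in each.

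Most of the spread of Ppp4c among libraries of 1 genotype and tissue moved with a property of the whole library. Each library was given a GC score: the mean log2 CPM, relative to the tissue mean, of the 25% of genes with the most G and C in their principal transcript minus that of the 25% with the least, over 10562 genes. Across the 48 libraries, deviations of Ppp4c from its group mean had a Pearson r of 0.949 with those of the score, a description of libraries that come 3 from each animal. Within single groups of 8 libraries r ran from 0.881 in deletion cerebellum to 0.982 in deletion cortex. The score spanned -0.66 to 0.56 in deletion cortex and -0.45 to 0.44 in wild type cortex, -0.63 to 0.35 in deletion striatum and -0.43 to 0.68 in wild type striatum, and -0.70 to 0.47 in deletion cerebellum and -0.73 to 0.43 in wild type cerebellum, so the genotypes overlapped. The principal transcript of Ppp4c has 54.4% G and C and is the shortest of the 8, at 1400 bases. That of Ppp2cb is close to it, with 54.25% and 1469 bases, but its r with the score was 0.384. Igbp1, with 47.4% and 1518 bases, had an r of 0.853. Why the members differ in this was not tested. A score built the same way on transcript length had an r of -0.976 with the GC score over the 48 libraries, so GC content and length cannot be told apart here. What sets the score was not tested.

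**Figure D3:**
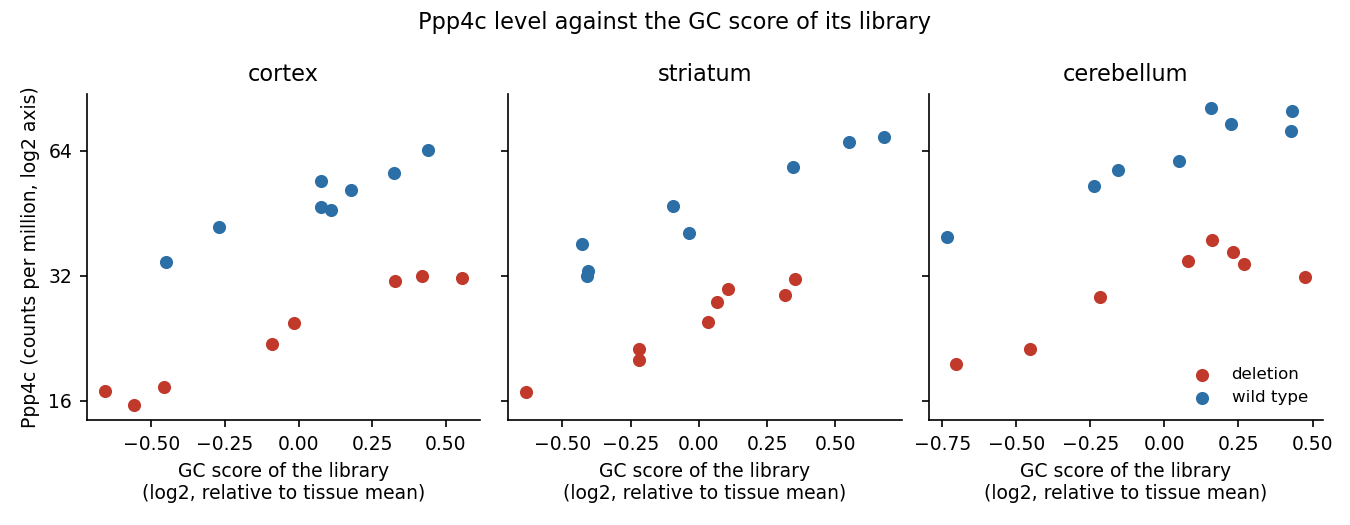
Ppp4c level in CPM on a log2 axis (vertical) against the GC score of the library (horizontal, log2 units relative to the tissue mean), 8 deletion and 8 wild type libraries per tissue. In both genotypes Ppp4c tends to be lower in libraries with lower scores, though not in strict order, and the deletion libraries lie below the wild type libraries of like score.

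With the GC score as a further covariate, a choice made after the data were seen, the standard error of the Ppp4c log2 fold change was smaller in every tissue. The values were -0.97 ± 0.05 in cortex (95% interval -1.08 to -0.86, adjusted p = 1.68e-08), -0.87 ± 0.06 in striatum (-0.99 to -0.74, adjusted p = 7.41e-07) and -1.05 ± 0.08 in cerebellum (-1.21 to -0.89, adjusted p = 1.03e-06), all from edgeR. In striatum this interval stops just short of -1, and Ppp4c ranked 30 of 33 interval genes there, against 21 of 30 in cortex and 16 of 32 in cerebellum. Lower calls in these fits were 0.148% of genes in cortex, 0.140% in striatum and 0.144% in cerebellum.

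None of the other 7 genes was called in any tissue by edgeR, none had an unadjusted p under 0.05, which 2.03% of all genes tested had in cortex, 3.32% in striatum and 2.08% in cerebellum, and DESeq2 called none of them either, with calls for 0.184, 0.244 and 0.192% of the genes in the 3 tissues. The libraries of deletion and wild type mice overlapped for each of the 7 in each tissue, and groups that did not overlap, in either direction, made up 0.119, 0.110 and 0.120% of the genes. Ppp2ca, the more abundant isoform of the PP2A catalytic subunit in counts, had 369, 419 and 460 CPM (lowest, median and highest) in deletion cortex, against 402, 428 and 489 CPM in wild type cortex. In striatum Ppp2ca had 365, 383 and 413 CPM in deletion libraries, against 275, 350 and 447 CPM in wild type libraries, and the wild type range was the wider. In cerebellum it had 398, 446 and 479 CPM in deletion libraries, against 365, 413 and 468 CPM in wild type libraries. Its log2 fold changes were -0.05 (95% interval -0.19 to 0.08), 0.12 (-0.09 to 0.33) and 0.07 (-0.08 to 0.23) in cortex, striatum and cerebellum. Changes of the size of the Ppp4c fall, in either direction, lie outside all 3 intervals.

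Ppp2cb, the other PP2A catalytic isoform, had 99.3, 127 and 140 CPM in deletion cortex, against 111, 127 and 155 CPM in wild type cortex. In striatum Ppp2cb had 100.3, 115 and 125 CPM in deletion libraries, against 87.8, 111 and 134 CPM in wild type libraries. Its cerebellar values were 97.1, 106 and 115 CPM in deletion libraries, against 91.9, 108 and 130 CPM in wild type libraries. The groups lay on top of each other, and the log2 fold changes of Ppp2cb were -0.06 (-0.24 to 0.13), 0.03 (-0.15 to 0.21) and -0.04 (-0.21 to 0.12) in cortex, striatum and cerebellum. Ppp6c, the catalytic subunit of PP6, had 38.8, 53.3 and 64.1 CPM in deletion cortex, against 45.0, 49.1 and 59.4 CPM in wild type cortex. In striatum Ppp6c had 42.8, 47.2 and 60.5 CPM in deletion libraries, against 26.7, 46.1 and 57.8 CPM in wild type libraries. Cerebellum gave 35.8, 58.7 and 73.9 CPM for Ppp6c in deletion libraries, against 43.1, 56.4 and 66.6 CPM in wild type libraries. Medians of Ppp6c in deletion libraries were slightly above those of wild type in each tissue, but the log2 fold changes, 0.06 (-0.15 to 0.28), 0.16 (-0.07 to 0.39) and 0.04 (-0.23 to 0.31), all had intervals that contain 0.

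No regulatory subunit of PP4 was called, and a fall as large as that of Ppp4c lies outside each of their intervals. Ppp4r2, the subunit of the PP4 complex that acts on histone H2AX, had 51.7, 68.5 and 82.7 CPM in deletion cortex, against 56.4, 58.9 and 76.6 CPM in wild type cortex. In striatum it had 44.2, 61.7 and 68.6 CPM in deletion libraries, against 40.9, 55.1 and 72.0 CPM in wild type libraries, and in cerebellum 33.8, 67.1 and 81.3 CPM in deletion libraries, against 46.3, 65.2 and 80.01 CPM in wild type libraries. The log2 fold changes of Ppp4r2 were 0.16 (-0.03 to 0.36), 0.04 (-0.18 to 0.26) and -0.03 (-0.32 to 0.25), and the cortical value had the smallest unadjusted p among the 7 genes, 0.0986 (adjusted p = 0.965, edgeR). With the GC score as a covariate the cortical value was 0.10 (0.00 to 0.20), with an unadjusted p of 0.0452 and an adjusted p of 0.954 in edgeR. In that fit 387 genes were higher and 488 lower at an unadjusted p under 0.05, of 16877 tested.

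Ppp4r1, a HEAT-repeat subunit that pairs with the PP4 catalytic subunit in a complex of its own, had 41.7, 48.7 and 53.6 CPM in deletion cortex, against 38.8, 51.1 and 62.4 CPM in wild type cortex. In striatum Ppp4r1 had 38.8, 40.9 and 59.9 CPM in deletion libraries, against 28.5, 44.3 and 53.0 CPM in wild type libraries. In cerebellum it had 38.1, 63.8 and 68.0 CPM in deletion libraries, against 46.1, 62.0 and 74.4 CPM in wild type libraries. The lowest of these, in deletion cerebellum, was library D809, and the log2 fold changes of Ppp4r1 were -0.11 (-0.29 to 0.08), 0.08 (-0.20 to 0.35) and -0.03 (-0.25 to 0.20). Ppp4r4, a further PP4 regulatory subunit, had 28.6, 43.3 and 55.2 CPM in deletion cortex, against 23.3, 36.9 and 56.4 CPM in wild type cortex. Its striatal values were 26.4, 43.6 and 78.8 CPM in deletion libraries, against 22.2, 38.8 and 64.1 CPM in wild type libraries. Its cerebellar values were 26.5, 43.2 and 63.0 CPM in deletion libraries, against 32.3, 47.5 and 66.5 CPM in wild type libraries. The intervals of Ppp4r4 were the widest of the 7, with log2 fold changes of 0.20 (-0.19 to 0.59), 0.10 (-0.37 to 0.56) and -0.12 (-0.48 to 0.24).

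Igbp1, the carrier of free catalytic subunits, had 37.2, 44.0 and 50.9 CPM in deletion cortex, against 39.6, 47.3 and 51.0 CPM in wild type cortex. In striatum Igbp1 had 35.3, 40.4 and 51.6 CPM in deletion libraries, against 33.6, 36.6 and 45.7 CPM in wild type libraries. In cerebellum it had 42.8, 52.8 and 62.5 CPM in deletion libraries, against 44.5, 51.0 and 60.5 CPM in wild type libraries. Its level differed little between genotypes, with log2 fold changes of -0.05 (-0.25 to 0.14), 0.07 (-0.15 to 0.28) and 0.00 (-0.18 to 0.19), and with the GC score as a covariate the intervals narrowed to between -0.09 and 0.08 in cortex, -0.03 and 0.23 in striatum and -0.06 and 0.10 in cerebellum. Over the 7 genes and 3 tissues the log2 fold changes ran from -0.12 to 0.20.

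**Figure D4:**
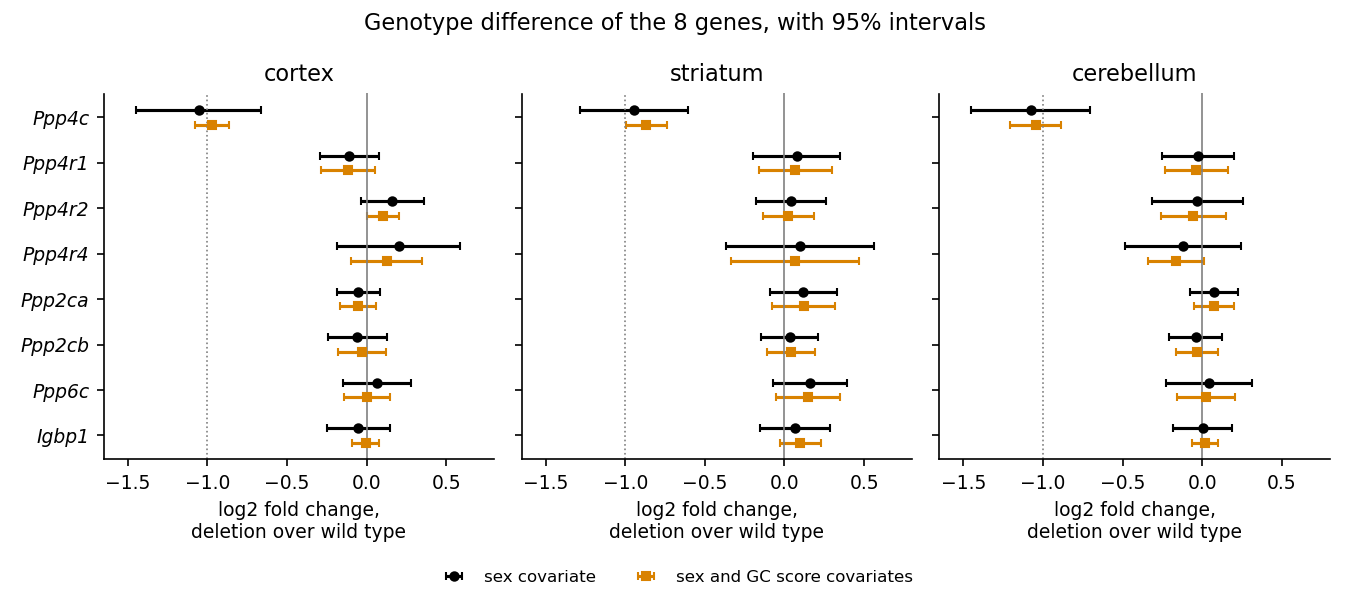
Log2 fold change, deletion over wild type, with 95% intervals (horizontal axis) of the 8 genes in each tissue, from edgeR with sex (black circles) and with sex and GC score (orange squares) as covariates, 8 libraries per genotype, with a dotted line at -1. Ppp4c lies near -1 in each tissue, and the other 7 genes lie between -0.12 and 0.20 in the fits with sex alone.

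The 8 genes moved with the library score in different directions. Deviations from group means over the 48 libraries correlated with the GC score at r = 0.853 for Igbp1 and 0.384 for Ppp2cb, near 0 for Ppp2ca at -0.166, and negatively for Ppp4r1 (-0.449), Ppp6c (-0.772), Ppp4r4 (-0.778) and Ppp4r2 (-0.81). Between members, the same deviations of Ppp4c correlated at 0.806 with Igbp1 and at 0.487 with Ppp2cb. They correlated at -0.053 with Ppp2ca, -0.31 with Ppp4r1, -0.652 with Ppp6c, -0.657 with Ppp4r2 and -0.668 with Ppp4r4. The highest values of any pair were 0.867 for Ppp4r2 with Ppp6c and 0.838 for Ppp4r2 with Ppp4r4. These values come from the same 48 libraries, and the part of the score in them was not tested.

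Per length of principal transcript, Ppp4c transcripts made up a smaller share of the 4 catalytic subunits in deletion mice. Its share of the summed CPM per kilobase of Ppp4c, Ppp2ca, Ppp2cb and Ppp6c was 6.32, 8.89 and 13.3% (lowest, median and highest) in deletion cortex, against 14.1, 17.2 and 21.6% in wild type cortex. In striatum the share was 8.20, 11.3 and 13.3% in deletion libraries, against 13.9, 19.0 and 28.7% in wild type libraries. In cerebellum it was 8.94, 13.7 and 16.2% in deletion libraries, against 17.6, 24.4 and 29.4% in wild type libraries. The groups did not overlap, and the fall of Ppp4c, which is already described above, is part of this share. The summed level of the other 3 catalytic subunits overlapped between genotypes, with medians of 156 CPM per kilobase in deletion and 159 in wild type cortex, 145 in deletion and 138 in wild type striatum, and 149 in deletion and 144 in wild type cerebellum. The share depends on the length used: with all annotated exons merged, Ppp4c is 4281 bases long and its median cortical share was 3.17% in deletion mice and 6.52% in wild type mice.

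Genes around these phosphatases showed no call in any tissue. The lists hold 54 genes of the table: the other PP4 and PP6 subunits, 17 PP2A scaffold and regulatory subunits, 5 genes of assembly and C-terminal methylation, 6 PP2A inhibitors, 9 other catalytic subunits of the family, and 8 PP4 substrates and partners. In edgeR 0 of 54 were called in cortex and in striatum and 0 of 52 tested in cerebellum, where all calls made up 0.130, 0.128 and 0.138% of the genes tested in the 3 tissues. At an unadjusted p under 0.05 in edgeR the counts were 1, 0 and 0, where 2.03, 3.32 and 2.08% of all genes tested passed. DESeq2 called 0 in each tissue, where its calls made up 0.184, 0.244 and 0.192% of the genes. Counts this small are near those shares. The median log2 fold change of the lists was -0.00 in cortex, -0.01 in striatum and -0.03 in cerebellum, against 0.00, -0.01 and -0.00 over all genes tested. Ppp4r3a and Ppp4r3b, which complete the PP4 complex with Ppp4r2 and are named for that role, had log2 fold changes of 0.03 ± 0.11 and 0.21 ± 0.17 in cortex, 0.03 ± 0.12 and 0.07 ± 0.15 in striatum, and -0.10 ± 0.16 and -0.00 ± 0.20 in cerebellum. The gene of smallest p in each list over the 3 tissues, none called, comes next. In cerebellum these were Ppp2r1b, a PP2A scaffold isoform, at -0.35 ± 0.18 (adjusted p = 0.9997, edgeR), Ppp4r1l-ps at -0.21 ± 0.14, Ppp6r3, a regulatory subunit of PP6, at -0.15 ± 0.10, Ppp3ca, a catalytic subunit of calcineurin, at -0.19 ± 0.13, and Ccar2, an inhibitor of the deacetylase Sirt1, at -0.11 ± 0.07. In cortex they were Set, an inhibitor of PP2A, at -0.10 ± 0.07, and Igbp1b, a relative of Igbp1 and the gene below the unadjusted threshold, at 1.15 ± 0.52 (adjusted p = 0.965, edgeR). Igbp1b had -0.05 ± 0.30 in striatum and was not tested in cerebellum, and Set had 0.10 ± 0.08 in striatum.

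The size of the Ppp4c fall was compared between tissues and between sexes in fits with an interaction term. The log2 fold change in striatum minus that in cortex was 0.12 (95% interval -0.39 to 0.63), in cerebellum minus cortex -0.01 (-0.53 to 0.50), and in striatum minus cerebellum 0.13 (-0.38 to 0.64). Females minus males gave -0.18 (-0.98 to 0.63) in cortex, 0.04 (-0.66 to 0.74) in striatum and -0.19 (-0.95 to 0.58) in cerebellum. None of the 8 genes was called in any of these 6 comparisons by edgeR, and the calls over all genes were 0% in each. None of the 8 had an unadjusted p under 0.05, a threshold that 1.86, 1.27 and 1.57% of all genes met in the 3 comparisons between tissues and 1.52, 1.10 and 0.558% in those between sexes in cortex, striatum and cerebellum. DESeq2, run for the 3 comparisons by sex, called 0 of the 8 genes and 1 gene in all, in cortex (0.00593% of the genes). With the animal as replicate block, which takes up what the 3 libraries of an animal share, the intervals for Ppp4c were narrower, at 0.18 (-0.14 to 0.50) for striatum minus cortex, 0.01 (-0.31 to 0.33) for cerebellum minus cortex and 0.17 (-0.15 to 0.49) for striatum minus cerebellum, and each contains 0. With the GC score the interval of striatum minus cerebellum was 0.01 to 0.36 around 0.18 (unadjusted p = 0.0440, adjusted p = 1, edgeR). Ppp6c in cerebellum had a difference of -0.45 between females and males in the same kind of fit (-0.73 to -0.18, unadjusted p = 0.00324, adjusted p = 0.99998, edgeR).

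Levels across tissues were compared in wild type mice, where edgeR called 8.67% of genes lower in striatum than in cortex, 22.4% lower in striatum than in cerebellum, and 24.2% higher and 24.7% lower in cerebellum than in cortex. Striatal markers barely separated wild type striatum from cortex, with medians of 6.17 and 5.90 log2 CPM. Cortical markers had medians of 3.98 and 6.38 there, but reached 6.04 in the striatum of W815. What this does to calls between these 2 tissues was not tested. Of the 8 genes, 1 was lower in striatum than in cortex, 4 were lower in striatum than in cerebellum, and 1 was higher and 1 lower in cerebellum than in cortex. Cerebellum had the highest and striatum the lowest wild type median for Ppp4c, Ppp4r1, Ppp4r2, Ppp6c and Igbp1. Ppp4r1 was lower in striatum than in cerebellum (log2 fold change -0.56 ± 0.11, adjusted p = 0.000212) and higher in cerebellum than in cortex (0.28 ± 0.11, adjusted p = 0.0453), both from edgeR. Igbp1 was lower in striatum than in cerebellum (-0.42 ± 0.10, adjusted p = 0.00100), as were Ppp6c (-0.33 ± 0.12, adjusted p = 0.0243) and Ppp2ca (-0.23 ± 0.09, adjusted p = 0.0393) in the same edgeR fit. Ppp2ca was also lower in striatum than in cortex (-0.31 ± 0.09, adjusted p = 0.0168), and Ppp2cb was lower in cerebellum than in cortex (-0.26 ± 0.09, adjusted p = 0.0194). These are small differences, and those of Ppp4r1 and Ppp2cb between cerebellum and cortex and of Ppp2ca between striatum and cerebellum were not called when genes with few counts were kept in the test. Leaving out 1 wild type animal ended the call of Ppp4r1 between cerebellum and cortex without W805, W806, W807, W808, W814 or W815 (0.24 to 0.29) and that of Ppp2cb without W806 or W807 (-0.24). It ended the call of Ppp2ca between striatum and cerebellum without W805, W807, W808, W815 or W816 (-0.25 to -0.17), of Ppp6c there without W805, W807 or W816 (-0.30 to -0.24), and of Ppp2ca between striatum and cortex without W807 (-0.25). Ppp4r2 and Ppp4r4 were called between no pair of tissues in these fits. None of these fits, those leaving out an animal included, had the animal as replicate block. With the block, edgeR kept the calls lost above. For cerebellum over cortex the adjusted p was 0.00301 for Ppp4r1 and 0.00125 for Ppp2cb. For striatum over cerebellum it was 0.0276 for Ppp2ca and 0.0360 for Ppp6c, and for striatum over cortex 0.0116 for Ppp2ca. No animal was left out of the block fit. The GC score is relative to the mean of each tissue, so as a covariate it cannot adjust for GC differences between tissues. With the GC score as a covariate edgeR called 41.4% of genes for striatum over cortex and 65.4% in either comparison with cerebellum. Those calls held the 7 calls above and added Ppp4r1, Ppp2cb and Igbp1 for striatum over cortex (-0.31, -0.21 and -0.23), Ppp4c, Ppp4r4 and Igbp1 for cerebellum over cortex (0.41, 0.39 and 0.19), and Ppp4c and Ppp4r2 for striatum over cerebellum (-0.45 and -0.16).

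Ppp4c itself had wild type medians of 43.8 CPM in striatum, 66.0 in cerebellum and 49.1 in cortex. Its differences were -0.05 ± 0.18 log2 for striatum over cortex, 0.39 ± 0.18 for cerebellum over cortex (adjusted p = 0.0900) and -0.43 ± 0.19 for striatum over cerebellum (adjusted p = 0.0584), none called by edgeR. With the animal as replicate block, since each animal gave all 3 tissues, the values were 0.38 ± 0.12 for cerebellum over cortex (adjusted p = 0.0148) and -0.44 ± 0.13 for striatum over cerebellum (adjusted p = 0.00627), and both were called. The block also brought in Ppp4r1 (-0.30, adjusted p = 0.00518), Ppp2cb (-0.22, adjusted p = 0.0115) and Igbp1 (-0.25, adjusted p = 0.00767) for striatum over cortex, and Ppp4r4 (0.42, adjusted p = 0.0303) and Igbp1 (0.18, adjusted p = 0.0245) for cerebellum over cortex, while the count of all calls for striatum over cortex was 5356 with the block (30.4% of genes), against 3283 without it. The block called 57.4% of genes for cerebellum over cortex and 56.4% for striatum over cerebellum.

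Between genes, levels were compared per kilobase of principal transcript. In wild type cortex Ppp2cb was highest with a median of 86.7 CPM per kilobase, then Ppp2ca with 60.2, Ppp4c with 35.1, Igbp1 with 31.1, Ppp4r1 with 13.3, Ppp4r2 with 12.1, Ppp6c with 11.9 and Ppp4r4 with 9.32. The ranges of 8 libraries separated the PP2A pair from the rest, and Ppp4c from the last 4, but Ppp4c and Igbp1 overlapped, as did the last 4 with each other. In deletion cortex the Ppp4c median was 16.6 CPM per kilobase, below that of Igbp1 at 29.0, and its range of 11.1 to 22.8 overlapped those of Ppp4r1, Ppp4r2, Ppp4r4 and Ppp6c. With merged exons in place of the principal transcript, Ppp4c and Igbp1 had wild type cortical medians of 11.5 and 8.27 CPM per kilobase, so with that length Igbp1 came last of the 8, while Ppp4c kept its place behind the PP2A pair.

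**Figure D5:**
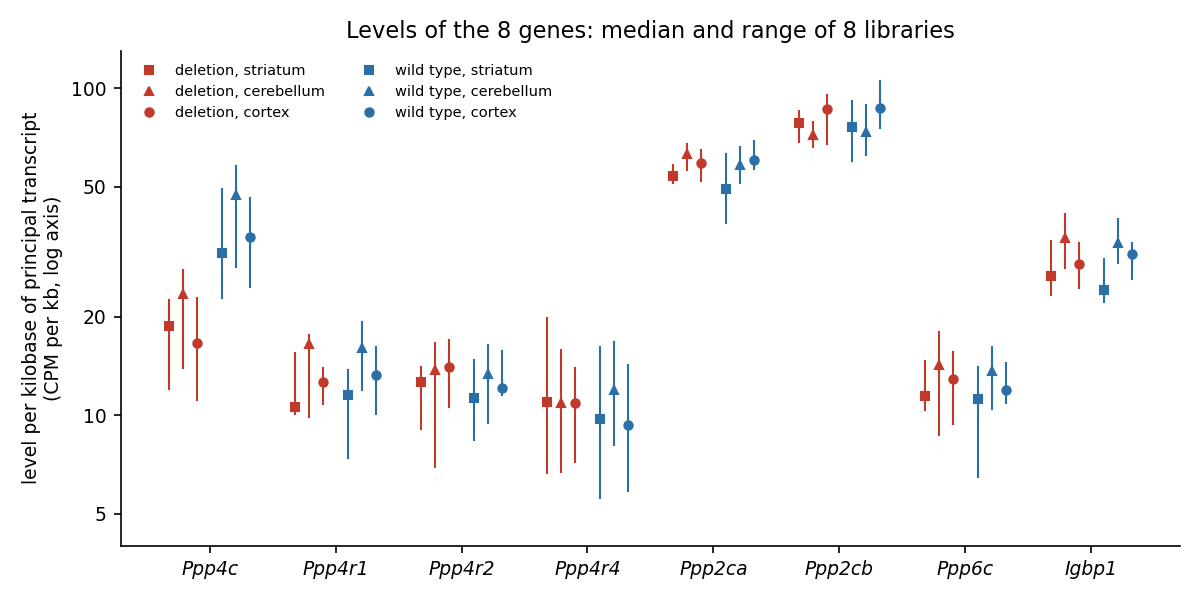
Level in CPM per kilobase of principal transcript on a log axis (vertical) of the 8 genes, with the median (symbol) and range (line) of 8 libraries for each tissue, deletion in red at left and wild type in blue at right. The medians of Ppp2cb and Ppp2ca lie above those of the other genes, and the deletion medians of Ppp4c, 16.6 to 23.5, lie below its wild type medians, 31.3 to 47.2.

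The genes whose levels followed Ppp4c most closely over all 48 libraries, by Pearson r of log2 CPM among 14666 genes, were its neighbours in the deleted stretch. They were Ino80e (0.956), Maz (0.942), Ypel3 (0.928), Tmem219 (0.92) and Hirip3 (0.913), and the genotype difference they share with Ppp4c is part of each value. Within the 24 wild type libraries their r with Ppp4c ran from 0.802 to 0.892. Outside the interval the closest were Sgf29 (0.888), Sars2 (0.756), Fpgs (0.756), Vps16 (0.752) and Sept1 (0.746), of which Sgf29 and Sept1 border the interval on either side. Their r with Ppp4c within the 24 wild type libraries ran from 0.851 to 0.936, so there the interval genes were not closer to Ppp4c than these 5. The deviations of these 5 from their group means correlated with the GC score at 0.751 to 0.9, and those of the first 5 at 0.559 to 0.953, so the score is shared as well. Of the other members, Igbp1 came closest to Ppp4c, with an r of 0.457 and rank 1980, and Ppp4r2 was farthest, with -0.399 and rank 11936. Within the 24 wild type libraries, where no genotype difference enters, r with Ppp4c was 0.834 for Igbp1 and -0.454 for Ppp4r2.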

How the data were processed

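RNA sequencing libraries of cortex, striatum and cerebellum from 16 mice were analysed as 6 groups of 8. The authors deposited raw read counts, 1 whole number per gene and library, without normalisation. Per the labels' protocols the library kit for mRNA kept the strand. FastQC 0.10.1, STAR 2.4.2a, Picard and SAMtools are named per the submitters' processing notes, as are the builds GRCm38 and mm8 without their roles. The sources used here do not name the counting tool, annotation or strand setting. The table held 47161 features, of which 92 were spike-in controls with 0.0614 to 1.09% of the reads counted per library, which were left out. Symbols and positions came from GENCODE vM21 on GRCm38, which gave a symbol to 46574 of 47069 gene identifiers. Ppp2ca overlaps 4 other annotated genes, with 238 counts over all libraries, and Ppp6c overlaps 1, with 15.

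Each comparison was an edgeR quasi-likelihood fit with TMM scaling, robust dispersions, edgeR's filter on low counts and sex as a covariate. Benjamini-Hochberg adjustment ran over all genes tested, and "called" means an adjusted p below 0.05. SE is the absolute log2 fold change over the square root of F. Tissue differences used the 24 wild type libraries, and differences of the genotype effect between tissues used all 48. CPM used TMM library sizes over the 48 libraries, and log2 CPM a prior count of 2. Levels per kilobase used the principal transcript. The fits were tested on simulated counts drawn independently for each library. Those counts had no library-wide score and no libraries sharing an animal, so they cannot show how the fits behave with either. The reads carry no molecular identifiers, so counts hold amplification error as well as counting error.

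Animals are the replicates. Whether the 3 libraries of an animal pair was checked: deviations from group means had a median correlation over 10807 genes of 0.436 between striatum and cortex, 0.535 between cerebellum and cortex and 0.265 between striatum and cerebellum for the same animal, against -0.07, -0.02 and -0.05 for other animals. The pairing comes from the labels, where 1 number is 1 animal.

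The 8 genes and the gene lists were chosen with earlier results of these data known. The genes named are the 8, list genes called in a tissue or otherwise the gene of smallest p in each list, Ppp4r3a and Ppp4r3b for their role, the 2 neighbours of Ppp4c, and the 5 genes of highest correlation with it inside and outside the interval. Of 55 listed genes around the phosphatases 54 were found. Alternatives were DESeq2, other scaling, no filter, no robust fit, no sex term, marker levels as covariates, each sex alone, 1 animal left out, a replicate block, and GC and length scores added after the data were seen. The work used R 4.3.3, edgeR 4.0.16, DESeq2 1.42.0, SciPy 1.17.1 and Biopython 1.88.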

Additional observations from a re-analysis of the deposited data

Results flagged for a closer look

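In 3 of the 48 combinations of a gene and a group of 8 libraries, the highest or lowest library stood apart from the rest by Dixon's criterion on log2 CPM, which chance alone meets in about 1 in 20 groups. Ppp4r1 had 38.1 CPM in the cerebellum of deletion female D809, against 58.5 to 68.0 CPM in the other 7 deletion cerebella, with a gap that is 0.742 of the range. Ppp4r2 had 33.8 CPM in the same library, against 58.5 to 81.3 CPM in the other 7, with a gap of 0.623 of the range. This is the library whose cerebellar markers, at 6.38 log2 CPM, were the lowest of 16 and whose GC score, at 0.47, was the highest of 16. The part of either in these values was not tested. Without animal D809 the cerebellar log2 fold changes of Ppp4r1 and Ppp4r2 were 0.04 and 0.06, and neither was called. Ppp4r2 had 76.6 CPM in the cortex of wild type female W816, against 56.4 to 63.9 CPM in the other 7 wild type cortices, with a gap of 0.593 of the range. That library had the lowest GC score of the wild type cortices, -0.45. Deviations of Ppp4r2 had an r of -0.81 with the score, and the part of the score here was not tested.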

How the results depend on the processing

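The log2 fold change of Ppp4c, deletion over wild type, stayed below 0 under every alternative run, from -1.16 to -0.94 in cortex, -1.02 to -0.83 in striatum and -1.17 to -0.98 in cerebellum. Its call did not hold everywhere. It was lost in males alone (-0.96, -0.97 and -0.98 in cortex, striatum and cerebellum), in females alone (-1.14, -0.92 and -1.17) and with marker levels as covariates (-0.98, -0.85 and -1.02). In striatum it was also lost with no sex covariate (-0.95). The fit without the library whose thalamic markers exceeded its striatal ones (-0.95) is the fit without D810, 1 of the 8 animals counted next. Leaving out 1 animal gave -1.16 to -0.97 in cortex and -1.02 to -0.83 in striatum, with the call lost for 10 and 8 of the animals, and -1.16 to -0.998 in cerebellum, where none ended it. Fits of 1 sex hold 8 libraries in place of 16, and for the other settings the cause was not tested.

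Genes called for deletion against wild type numbered 22 in cortex, 22 in striatum and 23 in cerebellum. With marker covariates they were 14 in cortex and 12 in striatum, in males alone 2, 4 and 1, in females alone 6, 1 and 1 in cortex, striatum and cerebellum, and by DESeq2 42 in striatum. DESeq2 called 1 gene for the sex difference in cortex, against 0 by edgeR.

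Uncalled values near 0 changed sign. With marker covariates these were, in striatum, Ppp4r1 (-0.027), Ppp4r2 (-0.060), Ppp4r4 (-0.090) and Ppp2cb (-0.039), and in cerebellum Ppp4r1 (0.082), Ppp4r2 (0.056) and Igbp1 (-0.016). With the length score they were Ppp6c (-0.0052) and Igbp1 (0.0061) in cortex and Igbp1 (-0.0075) in cerebellum. In 1 sex alone they were, in males, cerebellar Ppp4r2 (0.068), Ppp2cb (0.056) and Igbp1 (-0.014), and in females striatal Ppp4r4 (-0.044) and cerebellar Ppp2ca (-0.023) and Ppp6c (-0.16). Leaving out 1 animal gave ranges across 0 for Ppp4r4 (-0.092 to 0.21) and Ppp2cb (-0.012 to 0.084) in striatum, and in cerebellum for Igbp1 (-0.029 to 0.048), Ppp2cb (-0.078 to 0.0016), Ppp4r1 (-0.066 to 0.042), Ppp4r2 (-0.073 to 0.059) and Ppp6c (-0.014 to 0.12). Among differences of the genotype effect between sexes, the GC score turned Ppp4c (0.069), Ppp4r2 (-0.051), Ppp4r4 (-0.074), Ppp2cb (0.041) and Igbp1 (0.088) in cortex, Ppp4c in striatum (-0.019) and Ppp4r4 in cerebellum (-0.034), and DESeq2 turned Ppp2cb in cortex (0.0066). For cerebellum minus cortex the GC score turned Ppp6c (0.029).

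With the animal as replicate block, the difference of the Ppp4c effect between cerebellum and cortex was 0.0083. In wild type mice, genes called for striatum over cortex numbered 3283, 5356 with the block, 7296 with the GC score and 8153 with both. The block ended no call of the 8 genes, and those it added are given above. Without 1 animal the Ppp4c difference between striatum and cortex ran from -0.13 to 0.015. For the 8 genes no setting turned a called value round. The library of greatest depth, with 60751792 gene counts, was a deletion striatum, and no library fell below 29244745.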
